A study of Mus musculus with 6 samples.

Results

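The COMM domain family was followed through 6 Illumina bead arrays of mouse T cell acute lymphoblastic leukemia. The family was taken as all probes annotated to Commd1 to Commd10, which gave 15 of the 45281 probes on the array and all 10 genes of 19057 named genes. Leukemia had been induced by NOTCH1, and GFP-positive cells carrying both CD4 and CD8 were sorted out of the bone marrow of male mice 4 weeks after transplantation. The 3 control arrays are labelled wild type and the 3 Klf4-deficient arrays are labelled knockout. Both groups share the NOTCH1 induction and the sort. The labels used here give no strain, no age and no means by which Klf4 was inactivated. The labels do not say that the samples of a group came from separate mice, so the spread between them may be technical. The family was selected on the Commd10 signals, which stood out in this same contrast, so the differences between the groups below are descriptions and not tests of the family.

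COMM domain proteins carry a conserved stretch at the carboxyl end through which they bind one another. The family members assemble into a ring that joins the coiled-coil proteins Ccdc22 and Ccdc93 and the Retriever subunits Vps35l, Vps26c and Vps29. Together these form the Commander complex, which returns membrane proteins from endosomes to the cell surface. Commd1 is also known for limiting NF-kappaB by promoting the breakdown of RelA and for its part in copper export.

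Promoters are shown for 4 members, as a feature of the family that the arrays did not measure: 3 that hold an E-box and Commd7. The sequences are from RefSeq on build GRCm38.p6 and give the 250 bases before the annotated start of each gene, 5′ to 3′. Windows were found for 7 of the 10 genes, with 2 windows for Commd1. The 3 genes without a window in the sequences used were Commd2, Commd5 and Commd10. The motifs given below thus say nothing of the Commd10 promoter. Capitals mark CACGTG, an E-box letter run that is its own reverse complement, and CACCC on either strand (as CACCC or GGGTG), the core letters that Klf factors are known to bind. The motifs do not overlap each other in these windows.
Commd3, chr2:18672185-18672434, plus strand: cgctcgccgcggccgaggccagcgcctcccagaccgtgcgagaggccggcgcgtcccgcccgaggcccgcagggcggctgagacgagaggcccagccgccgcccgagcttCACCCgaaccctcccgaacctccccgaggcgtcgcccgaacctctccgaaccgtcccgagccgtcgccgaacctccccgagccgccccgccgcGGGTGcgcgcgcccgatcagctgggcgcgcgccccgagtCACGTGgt
Commd8, chr5:72168190-72168439, minus strand: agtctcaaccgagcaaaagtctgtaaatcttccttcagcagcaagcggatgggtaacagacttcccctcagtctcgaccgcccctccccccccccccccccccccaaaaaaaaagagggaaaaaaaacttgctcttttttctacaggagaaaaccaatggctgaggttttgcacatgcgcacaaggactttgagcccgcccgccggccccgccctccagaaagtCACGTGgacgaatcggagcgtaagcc
Commd9, chr2:101886012-101886261, plus strand: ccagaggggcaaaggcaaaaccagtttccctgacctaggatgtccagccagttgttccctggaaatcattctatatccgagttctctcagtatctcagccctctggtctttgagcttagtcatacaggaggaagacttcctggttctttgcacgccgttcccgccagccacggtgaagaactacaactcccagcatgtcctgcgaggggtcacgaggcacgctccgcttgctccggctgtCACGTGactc
Commd7, chr2:153632782-153633031, minus strand: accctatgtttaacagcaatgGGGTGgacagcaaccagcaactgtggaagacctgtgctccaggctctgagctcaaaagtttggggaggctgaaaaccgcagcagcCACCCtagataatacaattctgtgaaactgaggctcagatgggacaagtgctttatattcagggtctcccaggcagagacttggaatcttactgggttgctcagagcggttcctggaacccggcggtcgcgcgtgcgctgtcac

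The E-box run CACGTG stood in the windows of 3 of the 7 genes, Commd3, Commd8 and Commd9. That is 3 of the family's 8 windows, against 6.02% of all 32851 windows in the table. It began 8 bases before the start in Commd3, 10 in Commd9 and 26 in Commd8. This motif was chosen after the sequences were read. CACCC stood in the windows of 4 of the 7 genes, Commd1, Commd3, Commd4 and Commd7. That is 4 of 8 windows, against 52.0% of all windows. In Commd7, whose difference between the groups was the highest of the other members, GGGTG began 229 bases and CACCC 144 bases before the start. The other genes with CACCC had log2 differences of 0.05 (Commd1), -0.09 (Commd3) and -0.11 (Commd4) at their brightest probes. A match is a run of letters and no binding was measured.

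Probe values are deposited signals, which are intensity with a background already subtracted, so they can fall below 0. The background limit, between 21.8 and 23.7 on the 6 arrays, was 3 SDs of the spread of negative signals around 0. The mean signal of an array lay between 417 and 445 in the controls and between 359 and 432 in the arrays labelled Klf4-deficient, of which array 3 was the lowest. The brightest Klf4 probe passed the limit on 2 of 3 control arrays and on 3 of 3 labelled Klf4-deficient. It read 44.0, 18.4 and 24.6 in the controls and 80.6, 46.0 and 85.4 in the arrays labelled Klf4-deficient. The other Klf4 probes were under the limit on all 6 arrays. Their mean signals were 3.2 and -0.73 in the controls and -8.03 and -7.8 in the arrays labelled Klf4-deficient. The targeted gene thus goes against the label at the brightest probe only. The place of that probe relative to the deleted part is unknown, so this may check nothing. Of 13 measured markers of the sorted cell type, 11 passed the limit on all 6 arrays. Among these were Cd4, Cd8b1, Cd3e, Cd3d, Cd3g, Rag1 and Dntt. Ccr9 stayed under the limit on every array. Cd8a was above it on 3 of 3 control arrays and 1 of 3 labelled Klf4-deficient.

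All 10 genes of the family had a probe above background on all 6 arrays. Of the 15 probes, 12 passed the limit on every array, 2 on none and 1 on a single control array. The second probe of Commd10 and the third of Commd2 made up the pair under the limit. Probes differ in how brightly they bind, so the levels of different genes are not ranked.

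On the normalized log2(signal + 16) scale Commd10 was 3.61-fold higher in the arrays labelled Klf4-deficient, while the other 9 genes of the family lay between 0.836-fold and 1.14-fold. The protein is a subunit of the Commander ring. Its probe ILMN_1214167 read 547.7, 489.2 and 523.6 in control arrays 1, 2 and 3. In arrays 1, 2 and 3 labelled Klf4-deficient it read 1794.3, 1971.6 and 1601.3. Every array labelled Klf4-deficient was above every control, and the lowest of them was 1.77 above the highest control on the normalized log2 scale. The mean signals were 520 ± 29.4 (SD, n = 3) and 1789 ± 185 (SD, n = 3), a ratio of 3.44. After quantile normalization the log2 difference of the log2(signal + 16) values, labelled Klf4-deficient minus control, was 1.85 ± 0.03 (SE), with a 95% interval from 1.76 to 1.94. The SE depended on the fit. It was 0.07 over only the probes above background in a group. With arrays centred on the median, or with no normalization between arrays, it was 0.09.

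**Figure D1:**
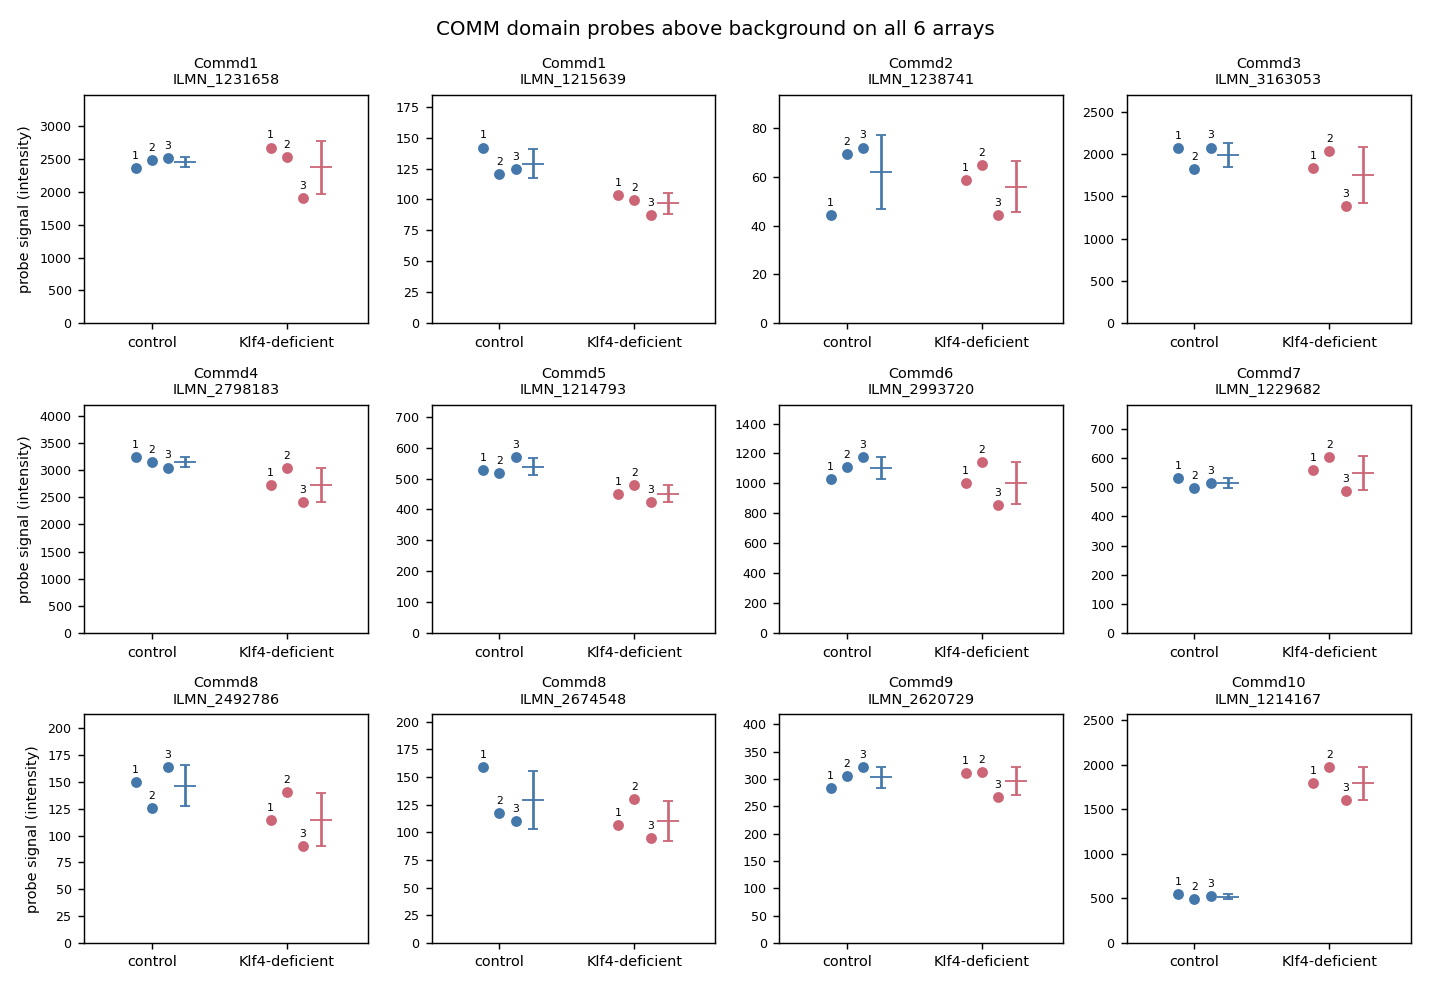
Deposited probe signal (intensity, linear axes from 0) of the 12 COMM domain probes above background on all 6 arrays, with array numbers beside the points. Bars show the mean and SD of 3 arrays. The 3 arrays labelled Klf4-deficient sit between 1601.3 and 1971.6 for Commd10, all above the controls, while for the other 11 probes array 3 labelled Klf4-deficient is the lowest point.

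Inside each array, without any normalization between arrays, Commd10 was also apart from the other members in the arrays labelled Klf4-deficient. The log2 value of Commd10 minus the median of the other 9 genes' log2 values was 0.04, -0.08 and -0.12 in control arrays 1, 2 and 3. It was 1.65, 1.69 and 1.68 in arrays 1, 2 and 3 labelled Klf4-deficient. The arrays of a group thus lay close together, and the gap between the group means was 1.72, against 1.85 after quantile normalization. Only the change of this distance between arrays is read, not its level.

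Commd10 also varied little within the groups. The SD and rank given here come from the signals on which it was chosen, so they describe it and support nothing. Its pooled SD within groups was 0.042 on the normalized log2 scale, against a median of 0.110 over the 2097 probes within 0.5 log2 of its mean level and above background on all arrays. Of those probes, 3.86% had a smaller SD. By size of difference Commd10 stood at rank 2 of the 15173 probes above background on all 6 arrays. Rank 1 was Apol11b, an apolipoprotein L gene, at 2.49 ± 0.70 (SE), named here after its values were seen. In all, 0.679% of these probes had an absolute log2 difference above 1.

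The second Commd10 probe, ILMN_1254992, is annotated to a cDNA clone and not to the RefSeq transcript of the first. It read 0.8, 5.5 and 1.4 in the controls and 6.1, 13.4 and 10.8 in the arrays labelled Klf4-deficient. All 6 values were under the background limit, so no fold is given, although the order of the groups was the same as for the first probe. Taking the mean of both probes gave a log2 difference of 1.18 for the gene.

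Among the members, 1 of 15 probes was called by limma at an adjusted p under 0.05 over all 45281 probes, where 0.00442% of all probes were called (2 probes). That probe was the first Commd10 probe, whose contrast is the reason the family was chosen. The count was 0 with no normalization between arrays, with a replicate block and with averaged probes. The other called probe has no gene name here and stayed under background on each of the 6 arrays. Of the 12 member probes above background on every array, 2 had normalized values that were higher in all arrays labelled Klf4-deficient than in any control, where 6.78% of the 15173 such probes did. In the other direction it was 1 of 12, where 10.0% of such probes did. Of the deposited signals, 1 of 12 did not overlap with the labelled Klf4-deficient group higher (2.44% of such probes) and 3 of 12 with it lower (12.7%).

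**Figure D2:**
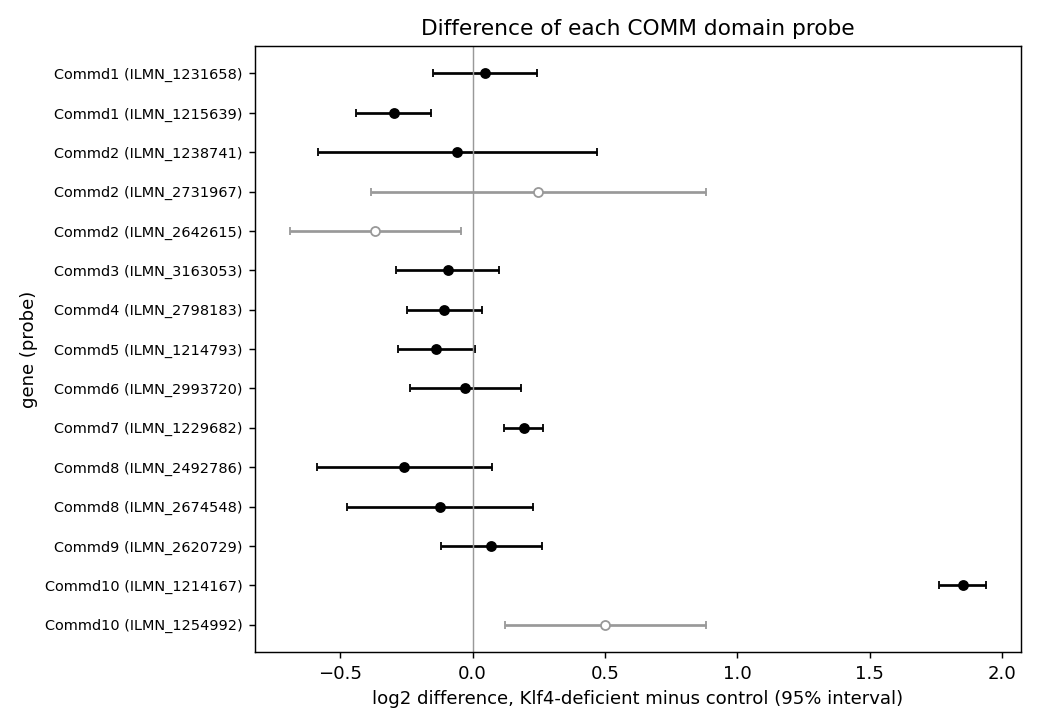
Log2 difference (labelled Klf4-deficient minus control, horizontal axis) of each of the 15 COMM domain probes, with 95% intervals from the fit over all probes. Filled points were above background on all 6 arrays and open points were not. The first Commd10 probe lies at 1.85, and the filled points of the other genes lie between -0.30 and 0.19.

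The other 9 genes lay between -0.26 and 0.19 in log2 difference, each at its probe with the highest mean. Their median was -0.06, with 3 genes above 0 and 6 below. The median over all 19057 genes was 0.00, and over the 8361 genes whose probe was above background on all arrays it was -0.01. The median over the 9 genes fell on the other side of 0 when control array 2 or control array 3 was left out (0.013 and 0.0014), and it was -0.12 without array 2 labelled Klf4-deficient.

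Commd7, a ring subunit also studied for its part in NF-kappaB control, was the other member whose normalized values did not overlap with the labelled Klf4-deficient group higher. Its signals were 530.6, 497.6 and 513.4 in the controls and 559.4, 602.3 and 487.6 in the arrays labelled Klf4-deficient. The deposited signals did overlap, since array 3 labelled Klf4-deficient read lowest of all. After normalization the log2 difference was 0.19 ± 0.03 (SE), a fold of 1.14, with an interval from 0.12 to 0.27. It stayed above 0 in all 20 alternatives run, from 0.09 to 0.21. The SE depended on the fit. With no normalization between arrays the difference was 0.09 ± 0.09 (SE), and with arrays centred on the median it was 0.19 ± 0.09 (SE). Over only the probes above background in a group the SE was 0.08.

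Commd1, the founding member, gave different answers at its 2 probes, which are annotated to the same transcript. The brighter probe read 2365.5, 2487.6 and 2509.2 in the controls and 2674.6, 2532.9 and 1908.2 in the arrays labelled Klf4-deficient, so the groups overlapped. Its log2 difference was 0.05 ± 0.08 (SE). The dimmer probe read 142.0, 120.4 and 124.4 in the controls and 103.6, 99.5 and 87.3 in the arrays labelled Klf4-deficient, and here every array labelled Klf4-deficient was below every control. Its difference was -0.30 ± 0.05 (SE), with an interval from -0.44 to -0.16. Only the dimmer probe thus had a direction, since the interval of the brighter one ran from -0.15 to 0.24. The mean of both probes gave -0.13.

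Commd5, once described as a calcium-regulated gene linked to hypertension, and Commd4 had signals that were lower in every array labelled Klf4-deficient, but not after normalization. Commd5 read 528.2, 518.5 and 568.5 in the controls and 450.0, 478.8 and 424.4 in the arrays labelled Klf4-deficient. Its normalized log2 difference was -0.14 ± 0.06 (SE), with an interval from -0.28 to 0.01. Commd4 read 3235.4, 3157.7 and 3048.1 in the controls and 2728.4, 3033.5 and 2415.5 in the arrays labelled Klf4-deficient. Its difference was -0.11 ± 0.05 (SE), with an interval from -0.25 to 0.04. Signals without overlap and with the labelled Klf4-deficient group lower were seen in 12.7% of the probes above background on all arrays, against 10.0% after normalization.

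Commd8 gave values below 0 at both of its probes, with wide intervals. The brighter probe read 150.3, 125.7 and 163.8 in the controls and 114.3, 140.2 and 90.3 in the arrays labelled Klf4-deficient. Its log2 difference was -0.26 ± 0.13 (SE), and that of the second probe was -0.12 ± 0.13 (SE). The groups overlapped at both.

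Commd3, Commd6 and Commd9, further subunits of the ring, overlapped between the groups on either scale. Commd3 read 2069.1, 1817.5 and 2076.4 in the controls and 1835.0, 2036.6 and 1385.5 in the arrays labelled Klf4-deficient, a log2 difference of -0.09 ± 0.07 (SE). Commd6 had a difference of -0.03 ± 0.08 (SE) and Commd9 one of 0.07 ± 0.07 (SE). The intervals ran from -0.29 to 0.10 for Commd3, from -0.24 to 0.18 for Commd6 and from -0.12 to 0.26 for Commd9.

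Commd2 had the widest interval of the 12 member probes above background on all arrays. Its first probe read 44.5, 69.2 and 72.0 in the controls and 58.8, 64.8 and 44.4 in the arrays labelled Klf4-deficient. The log2 difference was -0.06 ± 0.20 (SE), with an interval from -0.59 to 0.47. The second probe passed the background limit on 1 of 6 arrays and the third on none.

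The 11 probes of the other members shared 1 pattern across arrays before normalization. For 11 of the 11, array 3 labelled Klf4-deficient gave the lowest signal of all 6 arrays, and the mean signal of that array was also the lowest. After normalization it was the lowest for 4 of the 11 and control array 1 for another 4. For Commd10 that array read 1601.3, the lowest of its own group but far above the controls.

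As the means of their lists, markers of several other marrow cells were higher in arrays labelled Klf4-deficient. Erythroid, monocyte and macrophage, and NK and cytotoxic lists lay above every control in arrays 2 and 3, and the neutrophil list in array 3 alone. Relative to the control mean, erythroid markers lay at 0.17, 0.94 and 1.64 log2 in arrays 1, 2 and 3 labelled Klf4-deficient, as the mean of 11 of 15 listed genes. Monocyte and macrophage markers lay at 0.39, 0.71 and 1.37 (12 of 15 genes), NK and cytotoxic markers at 0.25, 0.54 and 0.69 (11 of 12) and neutrophil markers at -0.19, -0.07 and 1.27 (14 of 15). Commd10 lay at 1.79, 1.88 and 1.89 in the same arrays, with the lowest value in array 1. In the controls the erythroid list ran from -0.33 to 0.17, the monocyte and macrophage list from -0.03 to 0.02, the NK and cytotoxic list from -0.06 to 0.04 and the neutrophil list from -0.25 to 0.32. Array 1 labelled Klf4-deficient was thus above every control for the monocyte and NK lists and near the highest control for the erythroid list, and within the controls' range for the neutrophil list. The part of these cells in the Commd10 values was not tested. Without array 3 labelled Klf4-deficient the log2 difference of Commd10 was 1.84, and it ran from 1.83 to 1.88 over all 6 ways of leaving out 1 array. Double-positive T cell markers lay at -0.14, -0.05 and -0.13 (13 of 16 genes).

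**Figure D3:**
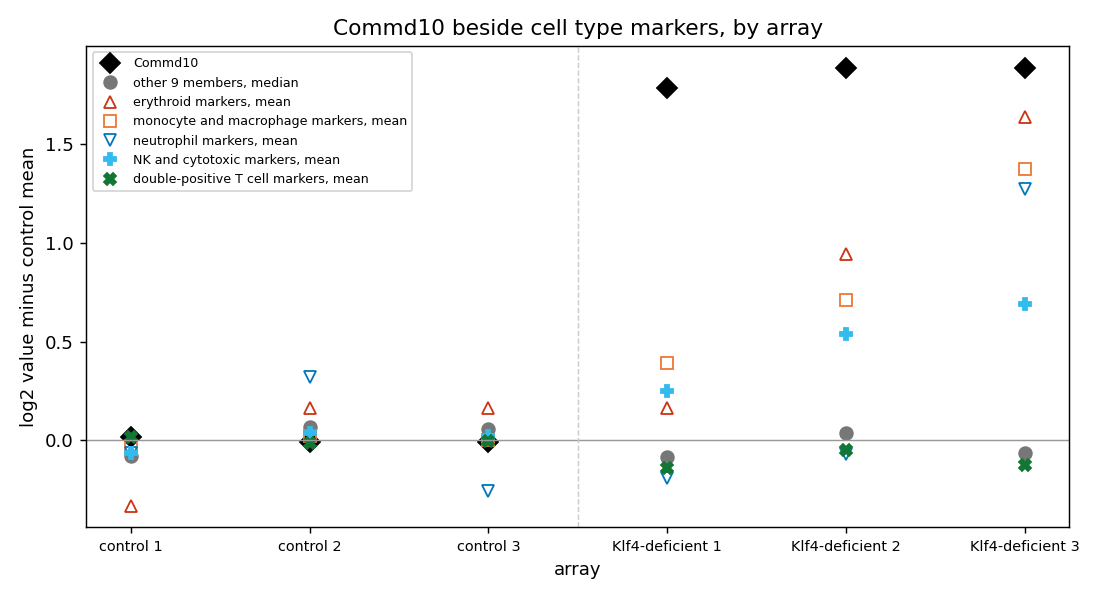
Normalized log2 value minus the control mean (vertical axis) on each of the 6 arrays for Commd10, for the median of the other 9 members, and for the mean of 5 marker lists. Commd10 lies at 1.79 to 1.89 in the 3 arrays labelled Klf4-deficient, while erythroid markers range from 0.17 to 1.64 there.

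The summed signal of the marker lists gives their level. Erythroid markers summed to 35168 to 42808 in the controls and 42871 to 57962 in the arrays labelled Klf4-deficient, of which most was the alpha globin Hba-a1. Epb42 and Gata1 read at or near 0 in the controls. Monocyte and macrophage markers summed to 3775 to 5082 and 4633 to 11354, neutrophil markers to 76659 to 106706 and 77761 to 150820, and NK and cytotoxic markers to 2124 to 3120 and 2655 to 3545, controls first. Of the NK and cytotoxic genes, 5 of 11 were under the background limit on all 6 arrays, among them Ncr1, Gzmb and Eomes. Prf1, Nkg7, Ccl5 and Ctsw were above it on all 6. Of the 11 genes, 7 had a log2 difference above 0. Prf1 did not go with the list mean, at -0.18 ± 0.24 (SE) with overlapping groups. B lineage markers summed to 704 to 942 and 596 to 869. Cd79b, Igll1 and Vpreb1 were above the limit on all 6 arrays, and of the 8 genes measured only Pax5 was under it on all. In bulk samples, fewer cells of a type and less RNA per cell cannot be told apart.

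Genes on either side of Commd10 in the RefSeq gene order are given for comparison. The nearest measured genes, Arl14epl on one side with 2 genes between and Sema6a on the other with 3, were under the background limit on all 6 arrays. The nearest above it on all arrays, chosen after their values were seen, were Atg12, an autophagy gene, with 6 genes between and Dtwd2 with 21. Atg12 read 2134.6, 1654.8 and 2027.3 in the controls and 1808.1, 1876.1 and 1564.1 in the arrays labelled Klf4-deficient, a log2 difference of -0.04 ± 0.07 (SE). Dtwd2 had a difference of 0.03 ± 0.16 (SE). The RefSeq table lists the transgene name Tg(Vav1-icre)A2Kio, with Vav-iCre and Vav-cre, among the synonyms of Commd10. That name belongs to a mouse line in which the Vav1 promoter drives Cre recombinase in blood cells. The labels used here do not say whether these mice carried it, and no Cre transcript was analysed here. The part of such a transgene in the Commd10 signals was not tested.

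Genes with the profile most like that of Commd10 were sought among named probes above background on all 6 arrays. Likeness was the root mean square difference of the 6 log2 values, each gene centred on its control mean, and 0 would be an identical profile. The nearest were Ear3 (0.41), Ear6 (0.44) and Epx (0.44), which encode eosinophil granule proteins, then the interferon-induced protease Usp18 (0.45) and the chemokine Ccl3 (0.47). Ear3 and Ear6 belong to a family of near-identical copies, so their values are uncertain. Usp18 read 222.0, 150.2 and 219.8 in the controls and 420.3, 535.5 and 407.5 in the arrays labelled Klf4-deficient. The groups did not overlap for any of the 5 genes, which a search for profiles like that of Commd10 favours. The log2 differences of the 5 genes ran from 1.25 to 1.62 with SEs from 0.15 to 0.38, against 0.03 for Commd10 in the same fit. Of the other members, Commd7 was nearest at 1.17 and Commd8 farthest at 1.50.

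Partners of the COMM ring in Commander came next. In the Commander list 5 of 6 genes were measured, and 0 were called by limma in either direction, where 0.00525% of the 19057 genes were called. Their median log2 difference was -0.05, against 0.00 over all genes. At an unadjusted p under 0.05 it was 1 of 5, where 7.61% of all genes passed. That gene was Ccdc93, the coiled-coil partner of the ring. It read 184.8, 186.9 and 184.6 in the controls and 228.2, 263.1 and 174.7 in the arrays labelled Klf4-deficient, a log2 difference of 0.30 ± 0.10 (SE). Its deposited signals overlapped, as array 3 labelled Klf4-deficient read lowest, while its normalized values did not. The Retriever subunits Vps35l, Vps26c and Vps29 had differences of -0.07 ± 0.05, -0.05 ± 0.08 and 0.01 ± 0.05 (SE), and Dennd10, a further Commander subunit, one of -0.05 ± 0.06 (SE). Ccdc22 was not analysed here.

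**Figure D4:**
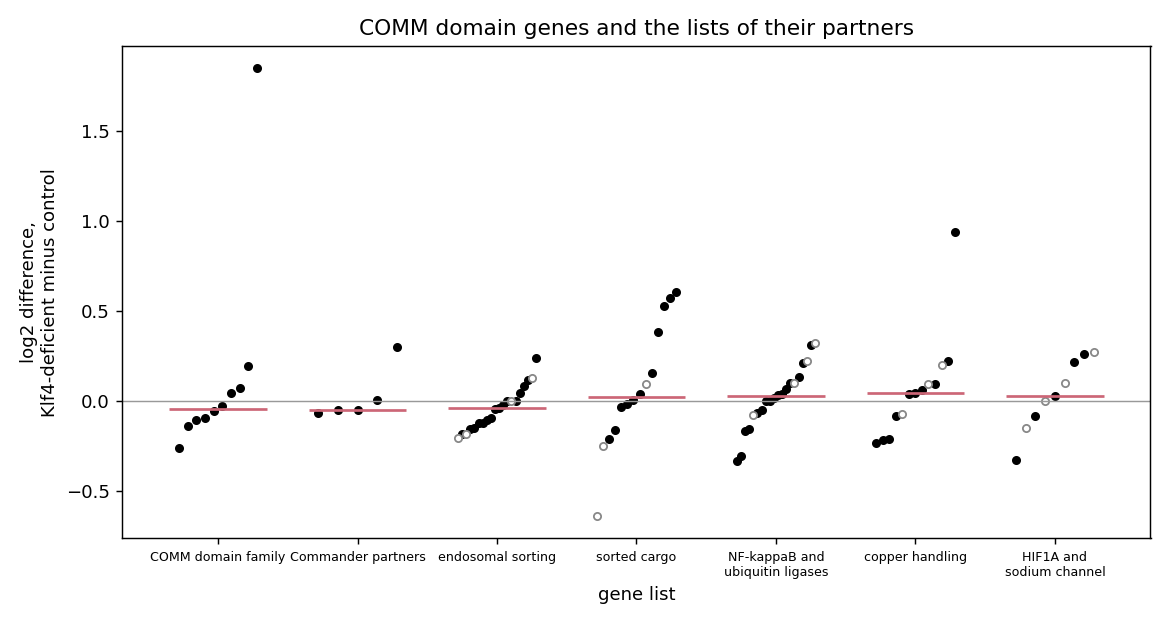
Log2 difference (labelled Klf4-deficient minus control, vertical axis) of each gene of the COMM domain family and of 6 lists of partners, at the probe with the highest mean. Filled points were above background on all 6 arrays, open points were not, and red lines are medians. Commd10 at 1.85 lies above every gene of the partner lists, whose highest value is 0.94 for Mt1.

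Endosomal sorting genes outside Commander covered retromer, the WASH complex and sorting nexins, and 20 of 20 were measured. None was called by limma (0.00525% of all genes), and 0 of 20 had an unadjusted p under 0.05 (7.61% of all genes). Their median difference was -0.04, from -0.20 to 0.24. Vps35, the retromer core, had a difference of 0.04 ± 0.06 (SE), Snx17, the adaptor that hands cargo to Commander, one of -0.04 ± 0.07 (SE), and Washc1, the actin-nucleating subunit of WASH, one of -0.10 ± 0.16 (SE).

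Membrane proteins that are sorted by these complexes gave 0 called of 14 measured by limma (0.00525% of all genes), with a median of 0.02. At an unadjusted p under 0.05 it was 1 of 14, near the 7.61% of all genes. That gene was Tfrc, the transferrin receptor, at 0.53 ± 0.08 (SE). Tfrc is also on the erythroid marker list, whose level in the same arrays is given above, and the part of that in its value was not tested. Atp7a, the copper exporter whose trafficking needs Commander, read 144.2, 107.0 and 138.4 in the controls and 123.0, 99.8 and 90.0 in the arrays labelled Klf4-deficient. Its difference was -0.21 ± 0.12 (SE).

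In the list of NF-kappaB subunits, inhibitors and ubiquitin ligases linked to COMM proteins, 20 of 22 genes were measured. By limma 0 were called (0.00525% of all genes). The median was 0.03, and 2 of 20, both lower, had an unadjusted p under 0.05, where 4.14% of all genes passed on the lower side. They were Ikbkg, the regulatory subunit of the IKK kinase, at -0.30 ± 0.06 (SE), and Nfkbib, an inhibitor of NF-kappaB, at -0.34 ± 0.12 (SE). Rela, the subunit that Commd1 acts on, had a difference of 0.04 ± 0.03 (SE). Nfkbia, an inhibitor that NF-kappaB itself induces, had one of -0.07 ± 0.06 (SE). Cul2 and Socs1, parts of the ligase that Commd1 assists, differed by -0.16 ± 0.11 and -0.17 ± 0.18 (SE).

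Copper handling genes gave 0 called of 13 measured by limma (0.00525% of all genes), with a median of 0.04. At an unadjusted p under 0.05 it was 1 of 13, near the 7.61% of all genes. That gene was Sco1, a copper chaperone of cytochrome oxidase, at -0.21 ± 0.07 (SE). The copper importer Slc31a1 had a difference of 0.04 ± 0.04 (SE) and the superoxide dismutase Sod1 one of 0.06 ± 0.12 (SE). Mt1, a metal-binding metallothionein, read 674.7, 818.3 and 655.5 in the controls and 717.4, 1435.1 and 2016.1 in the arrays labelled Klf4-deficient, so array 1 labelled Klf4-deficient lay within the controls.

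The last list held partners of Commd1 in hypoxia signalling and sodium channel turnover. All 9 genes were measured, 0 were called by limma (0.00525% of all genes), and the median was 0.03. At an unadjusted p under 0.05 it was 2 of 9, where 7.61% of all genes passed. Hspa8, a heat shock chaperone, was higher (as 3.47% of all genes) at 0.22 ± 0.07 (SE) and Arnt, the dimer partner of Hif1a, was lower (as 4.14% of all genes) at -0.33 ± 0.09 (SE). Hif1a itself had a difference of 0.03 ± 0.13 (SE). The sodium channel subunits Scnn1b and Scnn1g were under the background limit on all 6 arrays.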

How the data were processed

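Per the labels, a service company ran 6 Illumina arrays on biotin-labelled total RNA. The authors deposited linear probe intensity from BeadStudio (version unstated), per the submitters' processing notes. Between 31.3% and 34.2% of an array's values lie below 0. How background was subtracted, whether arrays were normalized and which build was used is not given in the sources used here.

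Signals were quantile normalized and floored at 0 before log2(signal + 16) was taken, so log2 differences understate dim probes. A model was fitted to all 45281 probes with limma 3.58.1 in R 4.3.3 (lmFit, eBayes with a variance trend) and p-values were adjusted by Benjamini-Hochberg at 0.05. The fit was repeated with other normalizations, offsets (1 and 50), variance models, probe choices and a replicate block, and without each array. Background was the mirrored spread of negative values, times 3.

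Of the probes, 34885 carried 1 gene symbol, 18 several and 10378 were unnamed here. Symbols were updated through RefSeq gene identifiers on GRCm38.p6. Lists used each gene's probe with the highest mean. Named were all member probes, the Commander list, fixed genes of other lists, the neighbours and 5 nearest profiles; other genes were chosen after their values were seen. The members and lists were chosen with earlier results of these data known. The number of arrays limits precision.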

Additional observations from a re-analysis of the deposited data

How the results depend on the processing

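Over 21 alternatives, 20 of them refits, the log2 difference of Commd10 stayed above 0. It was 1.75 with no normalization between arrays, 1.79 with an offset of 50 and 1.18 when a gene's probes were averaged, the second Commd10 probe being under background. The distance from the other 9 members within each array, chosen after seeing the data, gave 1.72. Leaving out 1 array gave 1.83 to 1.88. The number of member probes called was 0 with no normalization, with averaged probes and with a replicate block, and 1 in the other refits. The block leaves fewer degrees of freedom, and the numbers share only a label: deviations of same-numbered arrays correlated at 0.16, -0.03 and -0.18, and 2 of 6 arrays correlated best with their own number. The median of the other 9 genes was -0.14 with no normalization, where the median of all bright genes was -0.08, and ran from -0.12 to 0.013 when 1 array was left out. No partner list changed its count of 0 called genes in any of the 20 refits. Those refits called between 0 and 46 probes or genes in all, so a count of 0 in a short list says little. The cause of these shifts was not tested. Signals near background limit what the second Commd10 probe and Commd2 can show.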
